A study of Mus musculus with 45 samples.

Results

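The washout experiment asked which transcripts are silenced again when EHMT2 is allowed to return and which are not. EHMT2-dTAG mESCs, mouse embryonic stem cells of a mixed BL6/129 strain whose EHMT2 carries a degron tag and an mCherry reporter, were kept in FBS and LIF. One group received the degrader dTAG-13 for 15 days (dTAG_15d), and a second received it for 7 days and was then grown without it for 8 days (Recovery_8d, labelled dTAG+DMSO). The comparison rests on these 6 of the 45 libraries of the series, chosen by their labels, and another group of 3 libraries given DMSO for 15 days (DMSO_15d) serves as the level without degradation. Each group holds the same 3 clones (E2-17, E2-20 and E2-K71), and all groups carry the tag on EHMT2. The deposited table gives 1 mean per group, made by the authors, so no error, test or p-value can be given and a mean cannot show whether the 3 clones behaved alike. The table holds 55401 genes and 1146 repeat families, of which 17316 genes and 640 families had a mean over the 3 groups of at least 10 normalised counts and were compared. Levels are DESeq2-normalised counts, differences are on the scale of log2 (group mean + 1), and a gene is called higher or lower where the difference is at least 2-fold.

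EHMT2 (also called G9a) forms a complex with EHMT1 that places the H3K9me2 mark on histone H3, a mark of silenced chromatin. In mESCs the complex is known for silencing germline genes, endogenous retroviruses and genes of the 2-cell embryo, which a rare population of 2-cell-like cells (2CLCs) expresses together with the retrovirus MERVL. The authors use the name ECORD for domains of clustered genes that are de-repressed together when EHMT2 is lost. Because dTAG-13 acts on the protein, the transcript does not report its return. Ehmt2 had 691 normalised counts in DMSO_15d, 557 in dTAG_15d and 546 in Recovery_8d. The protein was not measured in these data. In a separate experiment the paper followed it by flow cytometry after washout of a 24 h treatment and reports that it recovered. The fall after washout is read against cells that stayed in dTAG-13 to 15 days, since the table holds no group harvested at the moment of washout.

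All 3 groups carried the transcripts that define mESCs. Pou5f1, the central pluripotency factor, had 20496, 15490 and 18081 normalised counts in DMSO_15d, dTAG_15d and Recovery_8d, and Nanog had 7278, 7279 and 7651. Esrrb, Zfp42, Klf4 and Sox2 were within 2-fold between any of the groups. Fibroblast transcripts were present too, as the study's methods describe growth on feeder cells, and they were lower after washout. The summed level of 25 fibroblast genes was 33395 normalised counts in DMSO_15d, 41472 in dTAG_15d and 19448 in Recovery_8d, with 0 of the 25 rising after washout beyond 2-fold. Of the defining markers, Col1a1 and Thy1 were well above the filter in all 3 groups, while Dcn (5.08, 6.69 and 6.29) and Lum (1.16, 0.322 and 0) were close to 0 throughout.

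Relative to continued degradation, 936 genes (5.41% of those compared) were lower after washout and 220 (1.27%) were higher. Of the 936, 535 were among the 693 genes (4.00%) that dTAG_15d held at least 2-fold above DMSO_15d, 160 others were below both groups, and 241 others were within 2-fold of DMSO_15d. The 693 de-repressed genes were chosen with the same dTAG_15d mean that the washout is compared with, so part of their fall is fixed by that choice, and the more informative quantity is how close Recovery_8d came to DMSO_15d. In the time course 451 of the 693 were at least 2-fold above DMSO at 7 days, the length of dTAG-13 before the washout, so the others may not have been de-repressed when it was removed. By closeness to DMSO_15d, 594 genes (85.7%) were back within 2-fold of DMSO_15d. Another 67 (9.67%) had fallen at least 2-fold yet stayed at least 2-fold above DMSO_15d, here called partly silenced, and 32 (4.62%) stayed above DMSO_15d and had fallen less than 2-fold, here called not silenced. Among the 16623 genes that were not de-repressed at 15 days, 175 (1.05%) were at least 2-fold above DMSO_15d after washout, against 1.58% of all genes. The limit cuts through a continuous range. AI429214, with 4.84, 26.9 and 10.7 normalised counts in DMSO_15d, dTAG_15d and Recovery_8d, lay just inside it, and Trim5, with 5.17, 17.6 and 11.4, just outside.

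**Figure D1:**
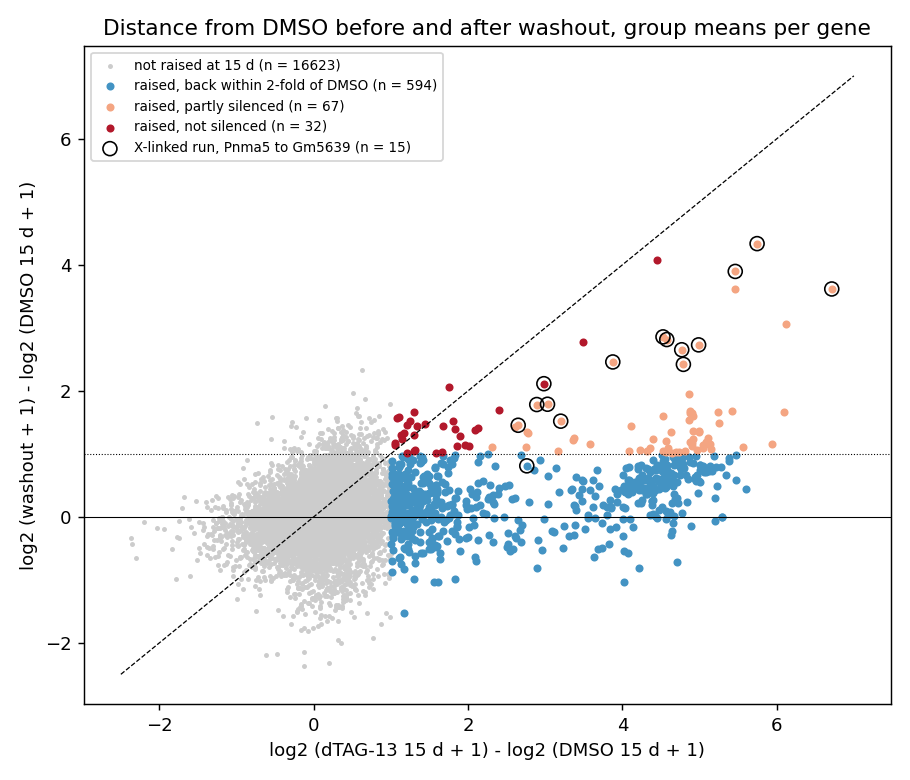
Each point is a gene, with the difference between dTAG_15d and DMSO_15d on the horizontal axis and between Recovery_8d and DMSO_15d on the vertical axis, both in log2 (group mean + 1). The solid line is the DMSO level, the dotted line is 2-fold above it and the dashed line marks no change after washout. Blue points (594 genes) returned to within 2-fold of DMSO, orange (67) and red (32) did not, and circles mark the 15 de-repressed genes of an X-linked run that lies above most others.

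The residue left after washout was small for most genes. Taking the excess of dTAG_15d over DMSO_15d as 100%, the median gene of the 693 kept 3.32% of it in Recovery_8d. The genes that returned kept a median of 2.58%, and the partly silenced genes kept 6.60%. Many of the latter had little in DMSO_15d, where 41 of the 67 had fewer than 5 normalised counts, against 116 of the 594, so that a residue of a few counts passes 2-fold. Protein-coding genes made up 75.8% of the genes that returned, 50.7% of the partly silenced and 65.6% of those not silenced. The 32 genes that were not silenced kept more, with a median of 76.5% of the excess left, and 14 of them were above their dTAG_15d level.

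Most de-repressed genes of the 2-cell programme returned to within 2-fold of DMSO_15d. Zscan4c, a zinc finger gene that marks 2CLCs, had 162 normalised counts in DMSO_15d, 3246 in dTAG_15d and 246 in Recovery_8d, and Zscan4d had 108, 2570 and 206. All 6 Zscan4 genes were de-repressed and all 6 returned, with a median of 2.85% of the excess left. Their median was still 0.65 log2 units above DMSO_15d. Of 17 other genes of the 2-cell stage, 12 were de-repressed and the same 12 were lower after washout and back within 2-fold of DMSO_15d. Zfp352, a zinc finger gene of the 2-cell embryo, went from 3.28 in DMSO_15d to 165 in dTAG_15d and 6.40 in Recovery_8d, and Tcstv3 from 5.92 to 168 and 6.33. Duxf3, the transcription factor gene at the head of the programme, had 8.71, 90.9 and 7.81 in the same order, and Dppa2 and Dppa4, which act upstream of it, stayed within 2-fold.

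The largest falls from dTAG_15d were those of Olfr376, Magea5, Magea8, Gm11543 and Usp17lb. The Usp17l deubiquitinase genes fell in 5 of 5 members (5.41% of all genes). Usp17lb led them with 47.6 normalised counts in DMSO_15d, 2355 in dTAG_15d and 65.1 in Recovery_8d. Its difference between Recovery_8d and dTAG_15d was -5.16 on the log2 scale. The Spopfm and Tdpoz genes encode adaptor-like proteins with a TRAF and a POZ domain. They were lower in 7 of 7 members compared, with 1 more under the filter, and 5 of the 7 were back within 2-fold of DMSO_15d. Their summed level was 9.33 in DMSO_15d, 518 in dTAG_15d and 17.2 in Recovery_8d. They thus passed the filter only through dTAG_15d, which fixes much of their fall, and the counts are a description. Spopfm2 and Tdpoz3 remained above it at 3.15 and 2.15 normalised counts, although their dTAG_15d levels had been 90.2 and 67.3. Outside the families, the olfactory receptor gene Olfr376 had 0.651 in DMSO_15d and 42.1 in dTAG_15d and was listed at 0 after washout. Samd7, a SAM domain gene known from photoreceptors (chromosome 3, 30746293 to 30767174), had 1.65, 96.6 and 2.27 and differed by less than 2-fold between 2CLCs and mESCs (0.03 on the log2 scale), so the deepest falls were not limited to genes of the 2-cell programme.

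A small excess remained across these genes, as it did across other de-repressed genes. Of the 200 genes in the authors' ECORD category that were de-repressed at 15 days, 175 (87.5%) had a Recovery_8d mean above DMSO_15d, with a median difference of 0.59 on the log2 scale against -0.01 over all genes compared. The share was 79.2% of the genes de-repressed at 24 h, 7 days and 15 days and 82.8% of those de-repressed at 15 days alone, and the median over all 693 was 0.39. These genes were selected with the same DMSO_15d mean they are set against. The authors chose that category on 7-day libraries of the same clones. Over all its 271 genes, with no filter on level, the median difference between Recovery_8d and dTAG_15d was -3.68 on the log2 scale. The 207 that passed the filter did so largely through their dTAG_15d level, so the counts over them and over their runs are a description only. Along the chromosomes, these genes formed 19 runs of at least 4 members spaced by no more than 1 Mb, of which 1 held no de-repressed gene. In 16 of them the median excess left was under 10%, from 0.943% for the run Gm47985 to Gm47996 on chromosome 1. The highest value, 20.1%, belonged to the run around the Xlr genes on chromosome X.

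The X-linked genes divided into groups that returned and 1 group that stayed above DMSO_15d. Magea genes, which encode antigens of the testis and of tumours, were listed at 0 in DMSO_15d and rose in dTAG_15d to 39.6 (Magea4), 38.3 (Magea5) and 38.1 (Magea8). After washout Magea5 and Magea8 were again listed at 0 and Magea4 had 0.592. These 3 passed the filter only through dTAG_15d, so their fall is a description. A further 5 Magea genes were under the filter, and all 5 were listed at 0 in both DMSO_15d and Recovery_8d. Rhox genes, homeobox genes of the reproductive tract, were de-repressed in 5 of the 6 members compared and returned in all 5, with 21 members under the filter. Rhox5 had 123, 567 and 129 in DMSO_15d, dTAG_15d and Recovery_8d, and Rhox2a had 1.77, 67.9 and 1.28. Rhox9, with 15.0, 31.3 and 23.9, was within 2-fold of DMSO_15d but kept 54.5% of its excess.

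The Xlr genes (X-linked lymphocyte-regulated, related to the meiotic chromosome protein SYCP3) fell after washout but stayed above DMSO_15d. Xlr3a had 99.4 normalised counts in DMSO_15d, 793 in dTAG_15d and 434 in Recovery_8d, which leaves 48.2% of the excess. Xlr3b had 44.2, 663 and 248, with 32.9% left. Xlr5a went from 0.766 to 93.8 and then 34.7, still 4.34 log2 units above DMSO_15d. All 9 Xlr genes compared were de-repressed and all 9 were still at least 2-fold above DMSO_15d after washout, 8 as partly silenced and Xlr3a as not silenced. These classes are set against dTAG_15d, not against the level when dTAG-13 was removed. The median Xlr gene was 3.20 log2 units above DMSO at 7 days in the time course and 2.65 in Recovery_8d. Xlr5a and Xlr5b were higher after washout (4.34 and 3.90) than at 7 days (3.28 and 3.40), the other compared Xlr genes lower. The excess left ranged from 10.8% in Xlr5c to 48.2% in Xlr3a, with a median of 32.2%. Xlr4c was listed at 0 in DMSO_15d and had 26.7 and then 4.35.

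The Xlr genes lie in 1 stretch with other genes that stayed above DMSO_15d. On GRCm38 chromosome X, positions 73033981 to 73299995 (266 kb), from Pnma5 to Gm5639, 18 genes had reads and 16 passed the filter. Of these, 15 were de-repressed and 14 of the 15 stayed at least 2-fold above DMSO_15d, the exception being the pseudogene Gm6858 (3.96, 32.6 and 7.68). F8a, between Xlr4b and Xlr4c, was not de-repressed (55.5, 82.7 and 51.1). The stretch includes Pnma5 and Pnma3, which belong to a family derived from a retrotransposon gag gene. Pnma5 had 164, 1219 and 565 and kept 38.1% of its excess. Of the 41 de-repressed X-linked genes outside the stretch, 39 returned and 2 (Efhc2 and Nxf3) were partly silenced, with a median of 1.54% left against 28.3% inside it. Within 1 Mb on either side 34 further genes were compared, of which 3 were de-repressed and 0 were at least 2-fold above DMSO_15d after washout. The annotated span of Xlr5a, 73107635 to 73292976, covers several of its neighbours, so the counts of these genes may share reads. The stretch was picked out after its values were seen, so these counts are a description.

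**Figure D2:**
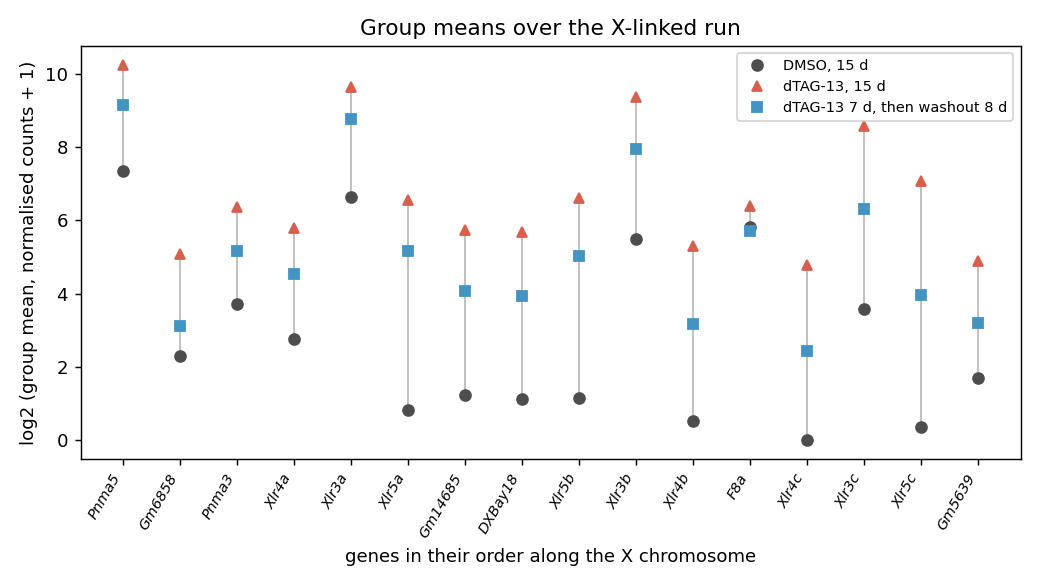
Group means of the 16 compared genes from Pnma5 to Gm5639 in chromosomal order, as log2 (normalised counts + 1), with DMSO_15d as circles, dTAG_15d as triangles and Recovery_8d as squares. A grey line joins DMSO_15d to dTAG_15d. In 14 genes the square sits between the other 2 symbols and at least 2-fold above the circle, while in F8a it lies just under the circle.

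Other libraries of the series give further values for the stretch, again as a description. In the time course the median gene of the stretch differed from DMSO by 0.13 log2 units at 24 h of dTAG-13 and by 2.97 at 7 days. For de-repressed genes on autosomes the medians were 1.19 and 1.73. The stretch was thus near the DMSO level after 1 day and above it after 1 week. In Recovery_8d its median was 2.44 above DMSO_15d. Pnma5, Pnma3, Xlr5a and Xlr5b were farther from DMSO after washout than at 7 days, and the other compared genes of the stretch were nearer. It also differed little between sorted cell states, at a median of 0.53 log2 units higher in 2CLCs than in mESCs, against 3.12 for autosomal de-repressed genes. Of 129 genes de-repressed at 7 days and 15 days but not at 24 h, 103 returned to within 2-fold of DMSO_15d. Of the 115 of these outside the stretch, Magea5, Magea8 and Rhox5 among them, 102 returned.

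**Figure D3:**
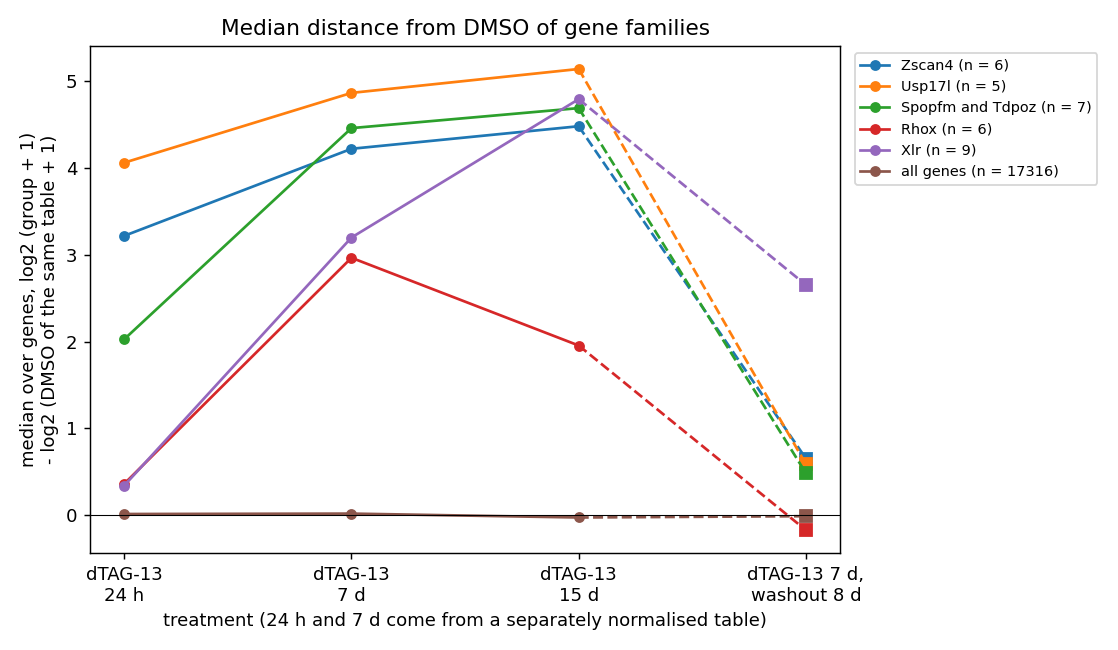
Median difference from the DMSO group of the same table, in log2 (group mean + 1), for 5 gene families and all genes at 24 h, 7 days and 15 days of dTAG-13 (circles) and in Recovery_8d (squares, dashed lines). Xlr and Rhox start at 0.34 and 0.36 at 24 h, well below Zscan4 and Usp17l, and of the families shown only Xlr stays over 2-fold above DMSO after washout, at 2.65.

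Start-site sequences are shown for 2 pairs of partly or not silenced Xlr genes and for a Zscan4 pair that returned. They show how alike the starts of neighbouring copies are. They are the RefSeq promoters of GRCm38.p6, from 250 bases before to 50 after the start, written 5′ to 3′ on the gene's strand. Capitals mark the longest exact stretch that the 2 genes of a pair share. Xlr3a lies at chrX:73097046-73097345 (minus strand), Xlr3b at chrX:73191929-73192228 (plus), Xlr5a at chrX:73117653-73117952 (minus) and Xlr5b at chrX:73148591-73148890 (plus). Zscan4c lies at chr7:11005495-11005794 (plus) and Zscan4d at chr7:11166099-11166398 (minus).
Xlr3a: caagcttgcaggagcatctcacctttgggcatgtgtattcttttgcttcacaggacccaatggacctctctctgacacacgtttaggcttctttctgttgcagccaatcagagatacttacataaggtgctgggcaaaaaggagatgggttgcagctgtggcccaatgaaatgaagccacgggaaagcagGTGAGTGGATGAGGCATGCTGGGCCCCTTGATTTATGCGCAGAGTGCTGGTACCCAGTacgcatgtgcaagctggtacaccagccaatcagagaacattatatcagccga
Xlr3b: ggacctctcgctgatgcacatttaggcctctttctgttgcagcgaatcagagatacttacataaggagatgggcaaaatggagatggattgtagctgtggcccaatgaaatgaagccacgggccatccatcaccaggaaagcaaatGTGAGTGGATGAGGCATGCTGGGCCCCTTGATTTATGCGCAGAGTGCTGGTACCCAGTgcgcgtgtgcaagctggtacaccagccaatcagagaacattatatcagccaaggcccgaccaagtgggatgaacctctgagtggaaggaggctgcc
Xlr5a: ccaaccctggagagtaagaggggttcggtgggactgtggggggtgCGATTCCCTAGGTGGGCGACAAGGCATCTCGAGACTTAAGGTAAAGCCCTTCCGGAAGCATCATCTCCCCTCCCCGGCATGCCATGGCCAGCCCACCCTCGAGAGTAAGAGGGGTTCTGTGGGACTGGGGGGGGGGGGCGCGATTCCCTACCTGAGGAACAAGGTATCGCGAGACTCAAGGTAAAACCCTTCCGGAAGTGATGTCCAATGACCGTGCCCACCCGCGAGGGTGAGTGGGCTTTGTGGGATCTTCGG
Xlr5b: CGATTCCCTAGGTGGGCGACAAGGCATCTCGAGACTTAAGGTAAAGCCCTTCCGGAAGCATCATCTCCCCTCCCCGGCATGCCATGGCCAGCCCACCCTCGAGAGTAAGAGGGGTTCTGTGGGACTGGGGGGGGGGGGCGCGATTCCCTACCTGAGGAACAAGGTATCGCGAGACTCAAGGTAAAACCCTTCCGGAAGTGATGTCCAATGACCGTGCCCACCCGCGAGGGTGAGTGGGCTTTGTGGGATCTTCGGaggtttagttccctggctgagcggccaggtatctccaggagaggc
Zscan4c: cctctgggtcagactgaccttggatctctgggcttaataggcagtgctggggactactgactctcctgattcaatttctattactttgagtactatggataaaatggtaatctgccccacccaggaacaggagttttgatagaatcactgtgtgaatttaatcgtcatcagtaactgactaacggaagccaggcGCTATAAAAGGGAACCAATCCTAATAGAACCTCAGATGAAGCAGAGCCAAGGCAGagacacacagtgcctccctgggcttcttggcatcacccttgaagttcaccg
Zscan4d: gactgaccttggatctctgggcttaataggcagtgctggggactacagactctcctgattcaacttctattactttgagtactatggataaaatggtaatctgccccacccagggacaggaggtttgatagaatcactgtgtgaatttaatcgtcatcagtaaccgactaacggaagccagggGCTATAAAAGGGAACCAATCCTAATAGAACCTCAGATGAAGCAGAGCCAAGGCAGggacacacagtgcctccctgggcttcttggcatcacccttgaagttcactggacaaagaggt

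Xlr5a and Xlr5b share a stretch of 255 bases, Xlr3a and Xlr3b one of 58 and Zscan4c and Zscan4d one of 55. Whether reads were divided between copies was not tested. The 300 bases hold 16 CpG pairs in Xlr5a and in Xlr5b, 5 in Xlr3a, 7 in Xlr3b, 4 in Zscan4c and 3 in Zscan4d. Of the 15 de-repressed genes of the stretch, 13 had a promoter in the RefSeq table. None of the 13 held the motifs searched on both strands, namely CACGTG (E-box), TTCCCGC (E2F), TGACTCA (AP-1) and the DUX site, which 8.09%, 5.29%, 5.95% and 0.0407% of all genes with a promoter of this length hold. At these shares few or none of 13 promoters would hold a site, so nothing is read from the absence. The same check over all 693 de-repressed genes is void, since only 54.4% of them had a promoter there.

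Most of the 99 genes that stayed at least 2-fold above DMSO_15d lay away from this stretch, with 77 of them on autosomes. Some lay together, as in the ECORD runs from Gm8689 to Gm4312 on chromosome 10 (6 of 12 de-repressed genes, median excess left 2.80%), Gm13043 to Gm13228 on chromosome 4 (5 of 13, 3.84%) and Gm5541 to Spopfm1 on chromosome 3 (4 of 17, 1.10%). Efhc2, an EF-hand gene on the X chromosome (17132049 to 17319368), had 3.06 normalised counts in DMSO_15d, 178 in dTAG_15d and 48.7 in Recovery_8d. Gm16499, an antisense transcript on chromosome 6 (53818743 to 53868183), was listed at 0 in DMSO_15d and had 68.4 and then 7.34. Among the 32 genes that were not silenced, Jun, a subunit of the AP-1 transcription factor, had 800.1, 2026 and 2169 in the 3 groups. Zfp951, a zinc finger gene, had 102, 278 and 287, and Pdzk1, a scaffold protein gene, had 41.7, 135 and 115. Smc1b, a cohesin subunit of meiosis, had 3.59, 14.5 and 18.1, and Glra1, a glycine receptor subunit, had 3.99, 25.4 and 15.2. Only 10 of the 32 were at least 2-fold above DMSO at 7 days in the time course, against 378 of the 594 that returned and 63 of the 67 that were partly silenced. Jun (0.17), Pdzk1 (-0.45) and Smc1b (-0.55) were among those under that limit at 7 days, on the log2 scale.

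Some of these genes were on the Y chromosome or in the mitochondrial genome. On the Y chromosome both genes compared were not silenced. Ddx3y, an RNA helicase gene, had 2.26, 70.5 and 53.9 normalised counts, and Uty, a demethylase-related gene, had 5.20, 68.4 and 41.7. Under the filter, Eif2s3y had 1.32, 7.85 and 9.28, and Kdm5d was listed at 0 in DMSO_15d, had 7.95 in dTAG_15d and was under 2 in Recovery_8d. A group mean cannot show whether 1 clone or all 3 carried the low DMSO_15d values. In the time course Ddx3y and Uty were 1.24 and 1.03 log2 units above DMSO at 7 days, against 4.45 and 3.49 at 15 days. Ddx3y had 26.1 normalised counts in the 7-day DMSO group, under separate normalisation, so these calls lean on the low DMSO_15d values. Of 25 mitochondrial genes 5 were above the 2-fold limit at 15 days, and 4 of these stayed there, with mt-Nd6 at 465, 982 and 1377 and the ribosomal RNA mt-Rnr2 at 3008, 7404 and 7419. The large protein-coding mt-Co1 was within 2-fold, at 438227, 501623 and 509149.

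Nearly all de-repressed repeats returned to within 2-fold of DMSO_15d. Of 640 families compared, 63 (9.84%) were at least 2-fold above DMSO_15d in dTAG_15d, and 59 of the 63 (93.7%) were back within 2-fold after washout, 31 of them without a 2-fold fall. The median excess left was 19.07%, against 3.32% for genes. Over all 640 families the median was 0.27 log2 units above DMSO_15d in dTAG_15d and 0.25 in Recovery_8d. Over all genes these medians were -0.02 and -0.01, so a general shift of repeats enters the comparison. The other 4 were not silenced, and 0 were partly silenced. Over all 640 families, 6 (0.938%) were at least 2-fold above DMSO_15d after washout. Relative to continued degradation 28 families (4.38%) were lower and 2 (0.312%) were higher. MERVL-int, the internal part of the retrovirus that is active in 2-cell embryos, had 5617 normalised counts in DMSO_15d, 147295 in dTAG_15d and 11016 in Recovery_8d. Its long terminal repeat MT2_Mm had 743, 16963 and 1306. MERVL-int thus kept 3.81% of its excess and MT2_Mm 3.47%, against a median of 2.85% for the Zscan4 genes. They remained above DMSO_15d by 0.97 and 0.81 log2 units, against a Zscan4 median of 0.65, and MERVL-int lay just inside the 2-fold limit. Among related elements MERVL_2A-int had 451, 2382 and 663 and MT2B2 had 295, 1001 and 311, while MT2A and MT2B were within 2-fold throughout.

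Other families that returned span several classes. The LTR ERVB4_2-LTR_MM had 12.7, 129 and 12.9 and the LTR RLTR6B_Mm 113, 1051 and 129 normalised counts in DMSO_15d, dTAG_15d and Recovery_8d. RLTR45-int ended below DMSO_15d, at 113 after 158 and 817. X7C_LINE had 9.61, 153 and 13.8. Of 6 young L1 families, 2 were de-repressed and both returned without passing the 2-fold limit against dTAG_15d. L1Md_A had 1940, 4916 and 2587 and L1Md_F3 had 914, 2127 and 1164. The others, L1Md_F, L1Md_F2, L1Md_Gf and L1Md_T, were within 2-fold throughout. In dTAG_15d they were 0.66, 0.55, 0.83 and 0.66 log2 units above DMSO_15d. In Recovery_8d they were 0.82, 0.39, 0.71 and 0.52 above it, so each stayed nearer to dTAG_15d than to DMSO_15d. This is not particular to young L1: over the 115 LINE families compared the medians were 0.36 in dTAG_15d and 0.39 in Recovery_8d.

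The 4 families that were not silenced were small. IAPLTR2a, a long terminal repeat of the intracisternal A-particle, had 16.9 normalised counts in DMSO_15d, 124 in dTAG_15d and 73.1 in Recovery_8d, or 52.7% of the excess. RLTR13D3, Arthur1 and MLT2F ended at 12.4, 15.3 and 28.3. None of the 4 was 2-fold above DMSO at 7 days in the time course, where IAPLTR2a differed by 0.86 on the log2 scale. Other IAP sequences returned, as IAPEy-int did with 9.80, 73.9 and 14.2 and IAP1-MM_LTR with 35.3, 81.7 and 49.1, and the abundant IAPEz-int stayed within 2-fold at 11807, 8992 and 11936. Reads that match many places were assigned to 1 at random, so the value of a family is firmer than that of any single copy.

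**Figure D4:**
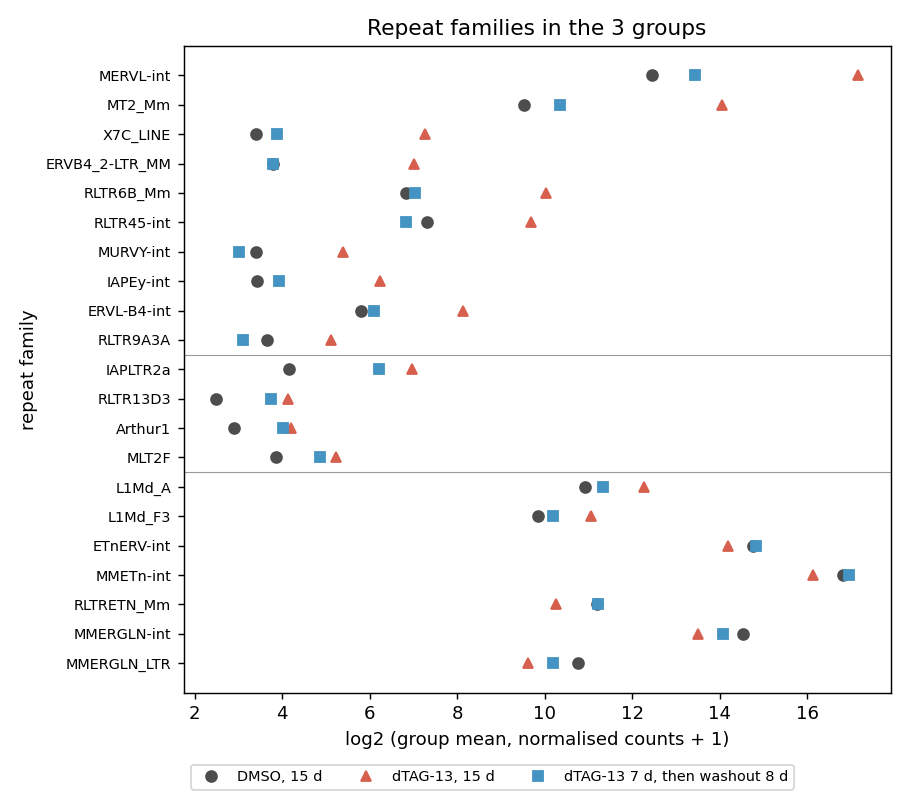
Group means of 21 repeat families as log2 (normalised counts + 1), with DMSO_15d as circles, dTAG_15d as triangles and Recovery_8d as squares. The upper block holds the 10 largest falls, where the squares lie near the circles. The middle block holds the 4 families that were not silenced, with squares near the triangles, and the lower block holds L1 families and families that dTAG-13 lowered.

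Transcripts that were low in dTAG_15d were near the DMSO level after washout. All 134 genes (0.774%) at least 2-fold below DMSO_15d in dTAG_15d were within 2-fold of it after washout, 74 of them at least 2-fold above dTAG_15d. Of all genes compared, only 1.11% were at least 2-fold below DMSO_15d after washout. The 134 were chosen with the same dTAG_15d mean that the washout is compared with, so part of their rise is fixed by that choice. Of the 134, 36 were also at least 2-fold below DMSO at 7 days, counting only genes with a time-course mean of at least 10. Over all 134 the median 7-day difference was -0.60 on the log2 scale, so many may not have been lowered 2-fold before the washout. Ntn1, which encodes the guidance cue netrin-1, had 697 normalised counts in DMSO_15d, 135 in dTAG_15d and 519 in Recovery_8d. The fucosyltransferase genes Fut1 and Fut2 had 44.4, 8.90 and 41.9 and 14.0, 3.68 and 17.8. The 7-day difference of Ntn1 was -0.13 on the log2 scale. Nkx6-3, a homeobox gene, had 25.5, 4.12 and 19.9, and Cth, which encodes an enzyme of cysteine synthesis, had 851, 248 and 684. The repeats MMERGLN-int and MMERGLN_LTR, the 2 families at least 2-fold below DMSO_15d in dTAG_15d, had in Recovery_8d 17387 and 1160 after 11568 and 784, both within 2-fold of DMSO_15d. The ETn retrotransposon MMETn-int had 115041, 71448 and 126871 and its LTR RLTRETN_Mm 2350, 1225 and 2373, lowest in dTAG_15d but within 2-fold of it in both other groups.

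Lists of genes chosen in other libraries, without the dTAG_15d mean, were also compared. Of 723 genes at least 2-fold higher at 7 days of dTAG-13 than in DMSO by the time-course means, 653 passed the filter in the washout table, and 425 (65.1%) of these were lower in Recovery_8d than in dTAG_15d while 0 were higher. Their median difference was -1.50 on the log2 scale against 0.04 over all genes, and -1.47 with no filter on level. Against DMSO_15d the median was 0.05. The time-course clones are the same 3 lines. Of 2676 genes higher in 2CLCs than in mESCs among DMSO-treated sorted cells, 1670 passed, and 481 (28.8%) were lower after washout with 16 higher. Their median difference was -0.38 on the log2 scale, or -0.53 with no filter on level. Against DMSO_15d the median of the 1670 was 0.08. The 1408 compared genes that were lower in 2CLCs had a median difference of 0.06, with 37 lower and 35 higher.

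Some genes fell past the DMSO level. After washout 192 genes (1.11%) were at least 2-fold below DMSO_15d, and 164 (0.947%) were at least 2-fold below both other groups. They included fibroblast transcripts, of which 18 of 23 compared were lower than in dTAG_15d (5.41% of all genes) and 13 were below both groups. Col1a1, a fibrillar collagen chain, had 519.8, 886 and 136 normalised counts in DMSO_15d, dTAG_15d and Recovery_8d, and Ccn5 had 36.9, 42.6 and 6.56. Interferon-response genes were lower in 9 of 21 members and below both groups in 7, with Ifit3 at 76.5, 54.6 and 16.1 and Rtp4 at 27.4, 34.4 and 6.37. Lars2, the mitochondrial leucyl-tRNA synthetase gene, had 6935, 6204 and 1992. None of the 23 fibroblast genes was de-repressed by the 2-fold rule, so they do not enter the counts of de-repressed genes. Primitive endoderm genes were lower than in dTAG_15d in 9 of 10 members, such as Hnf4a at 17.2, 41.8 and 15.3 with Gata4 the exception at 82.2, 153 and 117, and the feeder sum given above moved in the same direction. Its part in these changes was not tested. The reverse pattern, at least 2-fold above both other groups, was met by 53 genes (0.306%), including Bnip3, a mitophagy receptor, at 1238, 1018 and 3499 and the glycosyltransferase gene B4galnt2 at 10.1, 5.69 and 30.4.

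**Figure D5:**
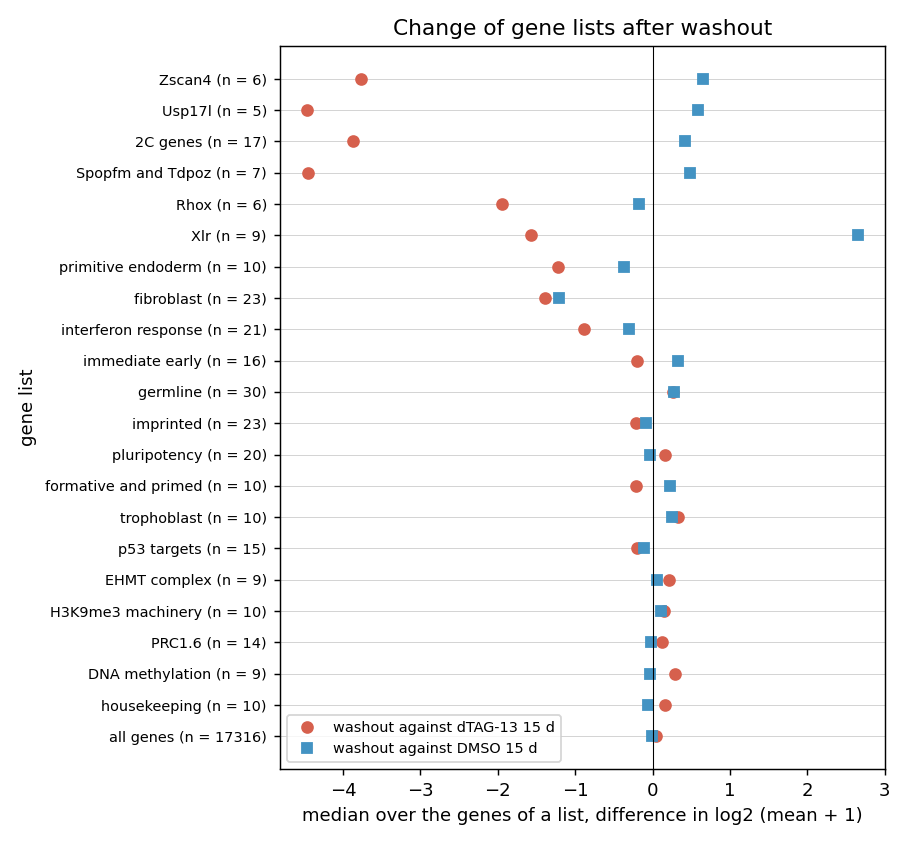
Median difference over the genes of each list, in log2 (group mean + 1), between Recovery_8d and dTAG_15d (circles) and between Recovery_8d and DMSO_15d (squares), with the number of genes compared in brackets. The 2-cell families have circles between -3.77 and -4.46 and squares between 0.42 and 0.65. Xlr stands out by its square at 2.65, and the fibroblast list by having both symbols at about the same negative value.

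The listed genes of the silencing machinery were all within 2-fold of dTAG_15d. The lists held 9 genes of the EHMT complex and partners, 10 of the H3K9me3 pathway, 14 of PRC1.6 and 9 of DNA methylation. Of all genes compared, 5.41% were lower and 1.27% higher. The share at least 2-fold from dTAG_15d was 3.69% at means of 100 to 1000 and 0.583% at 1000 or more. Few or no calls would thus be met at such levels, and nothing particular is read for these genes. The largest differences among them were those of Tet3, an enzyme of DNA demethylation, at 554, 872 and 443, Wiz, a zinc finger partner of the EHMT complex, at 1601, 1883 and 1125 and Mga, the scaffold of PRC1.6, at 2440, 2403 and 4014. Of 20 pluripotency genes 0 were lower and 1, Dppa3, was higher, at 91.9, 61.8 and 126. Among 30 germline genes 4 were lower (5.41% of all genes), including Nlrp14 at 41.0, 186 and 46.7 and Rpl10l at 488, 1618 and 375, and 5 were higher (1.27% of all genes). The 5 act in meiosis, with Tex15 at 30.3, 24.9 and 65.0 and Meioc at 223, 192 and 459, both above DMSO_15d as well by just over 2-fold. Of 16 immediate-early genes 1 was lower, close to the 5.41% of all genes. Fos at 3062, 5432 and 7726 and Jun were at least 2-fold above DMSO_15d after washout.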

How the data were processed

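RNA was measured as stranded poly-A libraries of unsorted EHMT2-dTAG mESCs, 3 clones per group. Per the submitters' processing notes and the study's methods, the authors trimmed reads with Trim Galore 0.6.7, aligned them to mm10/GRCm38 with STAR 2.7.10, with reads of many matches placed once at random and with end-to-end alignment without introns, which leaves out reads across splice junctions, counted genes (GENCODE vM25) and repeat families with TEcounts, and normalised with DESeq2 1.34.0 in R 4.1.0. The deposited values used here are normalised counts averaged by the authors over each group, a signal with no spread, and library depth is not given in the sources used here. The strand setting of the counting is likewise not given. Authors' columns of log2 fold changes, standard errors and p-values were not used, apart from the text category that names ECORD genes.

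Differences were computed as log2 (group mean + 1) with Python 3.11.15, numpy 2.4.6 and pandas 2.3.3, for features with a mean over the 3 groups of at least 10, with a 2-fold limit. No test between groups was possible. The arithmetic of the counts and classes was checked on simulated group means, which says nothing of the replicate error. The table of 24 h and 7 days, and that of sorted cells, were normalised separately, so ratios were formed only within a table. Coordinates are those of GENCODE vM21, which held 55141 of the 55401 genes. Members and lists were chosen with earlier results of these data known. Genes named are the largest falls and rises, the retained, partly silenced, lowered and below-both genes of highest ratio, and members of the gene and repeat lists; examples outside these (Trim5, AI429214, mt-Rnr2, mt-Co1, Nxf3, the neighbours of the Xlr genes, MT2A, MT2B, IAP1-MM_LTR) were chosen after their values were seen. Alternatives were another pseudocount, filter, scaling, fold limit and gene type.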

Additional observations from a re-analysis of the deposited data

How the results depend on the processing

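No paired analysis was possible because the washout table holds group means only, and for the same reason no replicate could be left out. Of 105 alternative values 63 stayed within 1.5 times the reported one or kept their median, 42 moved and 0 reversed. With no filter beyond a mean above 0, genes lower after washout than in dTAG_15d numbered 2599 and higher 679, repeats 70 and 20; raised genes back, partly and not silenced were 1963, 115 and 188, repeats 100, 5 and 17, and lowered genes back 436. With a mean of at least 50 the genes were 425 lower and 87 higher, the repeats 17 and 0; raised genes were 243, 26 and 11, repeats 33 back and 1 not silenced, and lowered genes 51. At a 4-fold limit the genes were 348 and 5, the repeats 10 and 0; raised genes were 344, 5 and 9, repeats 10 back and 1 not silenced, and lowered genes 5. With a pseudocount of 10, 85 genes and 0 repeats were higher, 11 raised genes were partly and 11 not silenced, 36 repeats were back and 1 not silenced, and lowered genes were 46. A pseudocount of 0.5 gave 4 higher repeats and the same gene sum gave 0. Among protein-coding genes 34 were partly and 21 not silenced. The stricter settings test fewer features by construction. Keeping genes with a mean of at least 10 in a sorted group, an alternative chosen after seeing the data, moved no count by over 1.5 times. The share of genes at least 2-fold from DMSO_15d after washout was 6.15% at means of 10 to 30 and 0.510% at 1000 or more, so calls at low levels are the least firm.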

Other observations

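The SINE family B2_Mm1a had 73495 normalised counts in DMSO_15d, 83720 in dTAG_15d and 50121 in Recovery_8d. Gm15564, an antisense transcript on chromosome 16, had 545, 497 and 122. The lincRNA genes Gm35040 and Gm45847 had 13.5, 8.98 and 42.6 and 22.5, 15.0 and 54.5, each highest after washout.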
